A study of Mus musculus with 6 samples.

Results

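Genes of the antioxidant and glutathione detoxification system were compared between 3 untreated MCRedAL prostate tumor allografts in mice and 3 allografts from mice given degarelix. The members were taken by gene name: transferases of the alpha, mu, pi, theta, omega and kappa classes, microsomal transferases, glutathione peroxidases, peroxiredoxins, thioredoxin reductases and 13 genes listed singly. With exactly 1 symbol per transcript cluster and the brightest cluster per gene, 51 members were found among 30142 genes tested. Of these, Gpx2-ps1, Prdx2-rs3 and Prdx6-ps2, carry names of pseudogenes or related sequences. Clusters annotated with more than 1 symbol are no members, which leaves out Gclm, Prdx1, Gsta1 and Gstp2.

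RNA was read on Affymetrix MTA 1.0 whole-transcript arrays, 1 array per tumor. All mice were male, and all tumors came from the same line, which carries the red fluorescent protein mCherry, so the replicates show the spread among tumors of 1 line. Tumor cells were sorted for mCherry and against 3 immune antigens: CD45, CD11b and the product of Adgre1. The untreated group (titles with Intact) was not treated, and mice were assigned at random. The other group (titles with 7dPC, a tag the labels do not explain) received degarelix, which blocks the receptor of gonadotropin-releasing hormone and so withdraws androgen, under the skin once tumors reached about 500 mm2 (unit as in the labels). The sources used here do not give strain, age or sampling time. Array medians over the genes tested ran from 5.57 to 5.69 on the log2 scale.

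As background, cells remove peroxides along parallel routes. Superoxide dismutases turn superoxide into hydrogen peroxide, which catalase, glutathione peroxidases and peroxiredoxins break down. Glutathione, made by Gclc and Gclm and then Gss, feeds the peroxidases and the transferases, which couple it to reactive compounds. Gsr and the thioredoxin reductases restore the reduced forms with NADPH. The transcription factor NRF2 (Nfe2l2), held down by KEAP1, switches on many of these genes through the antioxidant response element.

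To show this element in members that recur below, the RefSeq promoters of GRCm38.p6 (250 bases before to 50 after each start) were searched on both strands for its core, TGACNNNGC. Promoters were found for 42 of the 51 members, and 8 of these 42 genes (19%) held a match in at least 1 promoter, against 14% of all 27025 genes in the table. The other spelling of the core, TGAGNNNGC, was added after the promoters had been read and was held by 7 of the 42 (16.7%), against 19.8% of all genes. The AP-1 motif TGACTCA, which can overlap either spelling, was held by 4 of the 42 (9.52%), against 5.95%. The stretches below are from members that recur in the results, with either spelling of the core in capitals. The first is the whole promoter of the sulfiredoxin gene Srxn1 (chr2:152105274-152105573, plus strand), and the others are parts of the promoters of Txnrd1 (chr10:82859094-82859142, plus strand), Gstm5 (chr3:107895792-107895840, plus strand) and Gstp1 (chr19:4037958-4038006, minus strand).
Srxn1: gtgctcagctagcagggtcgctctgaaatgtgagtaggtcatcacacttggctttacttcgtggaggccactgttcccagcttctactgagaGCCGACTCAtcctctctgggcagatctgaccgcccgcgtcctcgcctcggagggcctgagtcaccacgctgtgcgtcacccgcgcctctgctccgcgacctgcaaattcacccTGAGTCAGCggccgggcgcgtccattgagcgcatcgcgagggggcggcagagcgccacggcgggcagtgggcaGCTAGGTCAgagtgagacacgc
Txnrd1: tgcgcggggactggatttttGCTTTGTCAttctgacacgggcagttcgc
Gstm5: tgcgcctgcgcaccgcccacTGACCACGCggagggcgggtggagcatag
Gstp1: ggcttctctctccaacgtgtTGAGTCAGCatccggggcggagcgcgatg
In Srxn1 and Gstp1 the match TGAGTCAGC also holds the AP-1 motif. Of the 9 members that passed the test described next, 6 had a promoter in the table. None of these 6 held the first spelling, Gstt1 held the second and Mgst2 held the AP-1 motif alone. A match describes letters in this window only.

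After degarelix 4 members rose and 5 fell in limma at an adjusted p under 0.05. Those that rose were the transferase genes Gsta4, Gstt1 and Mgst2 and the secreted peroxidase gene Gpx3. Those that fell were Gclc and Gsr, which make and restore glutathione, the mitochondrial peroxiredoxin gene Prdx3, the catalase gene Cat, and Gpx6. All 9 moved by between 1.3-fold and 2.26-fold. The members called made up 17.6% of the 51, against 11.7% of all 30142 genes. By direction, 7.84% of members rose and 9.8% fell, against 4.19% and 7.51% of all genes. Many members were dim. The values of the 23 background probe sets ran from 2.14 to 6.93, with a median of means of 3.26. Their brightest value, 6.93, is thus a strict mark. Above it lay the means of 29 members, of which 7 passed (24.1%), against 23.8% of all genes with such a mean. The median change was 0.05 over members and 0.04 over all genes. The count of members that rose was 7 without untreated replicate 3, and the count that fell was 3 without degarelix replicate 1.

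**Figure D1:**
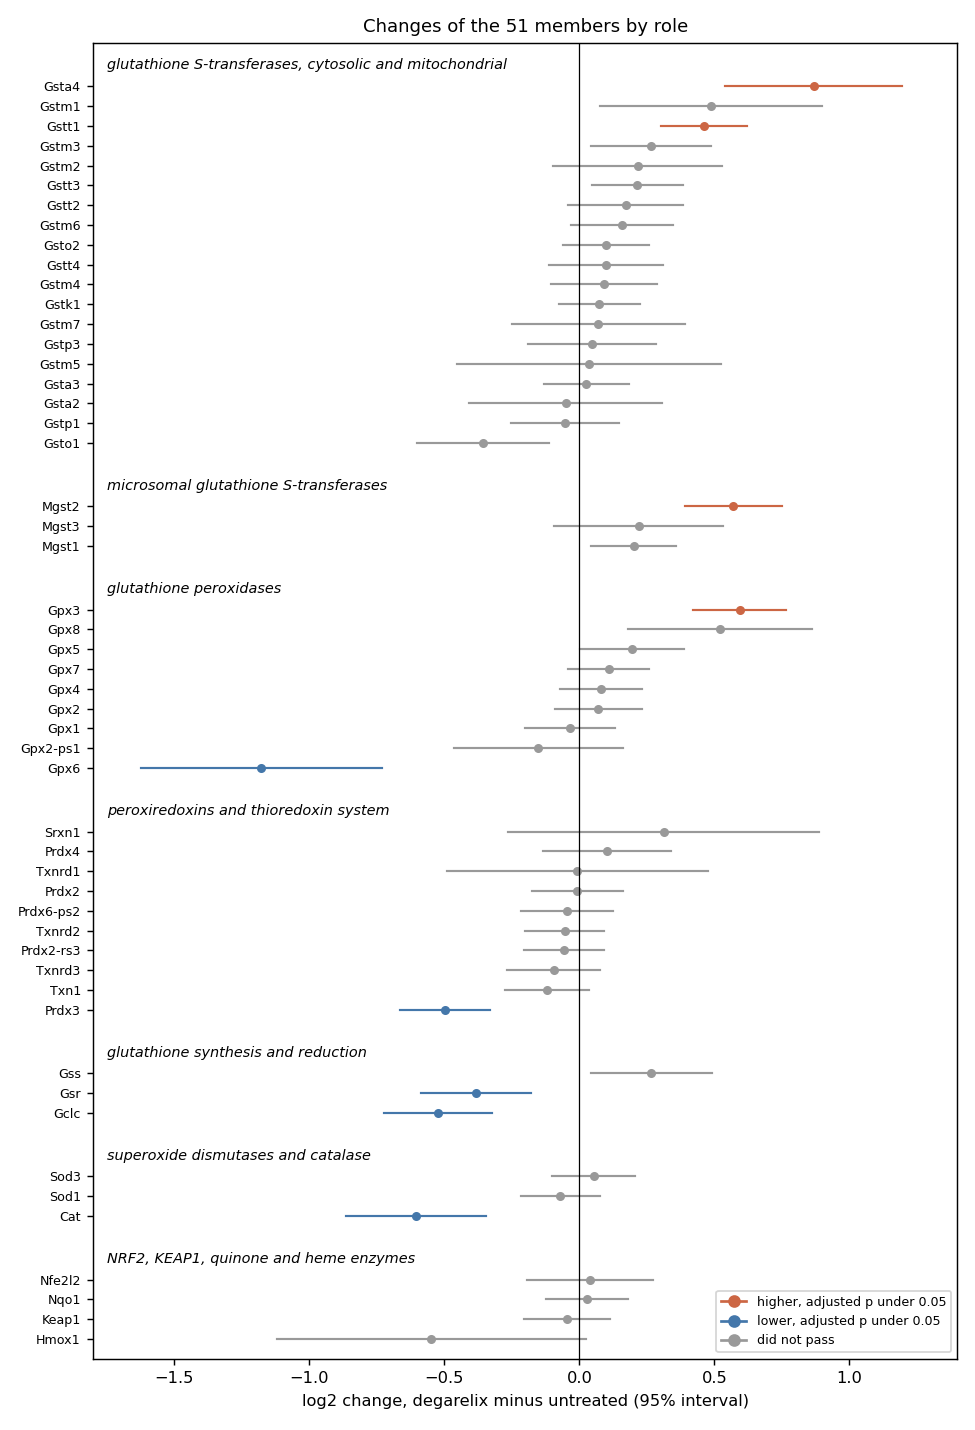
Log2 change of each of the 51 members, degarelix minus untreated, with its 95% interval from limma, grouped by role. The 4 coloured points to the right of 0 (Gsta4, Gpx3, Mgst2, Gstt1) and the 5 to the left (Gpx6, Cat, Gclc, Prdx3, Gsr) passed the test, and grey points did not.

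Among the 19 cytosolic and mitochondrial transferases 2 rose in limma (10.5%), against 4.19% of all genes. None fell, against 7.51% of all genes. At an unadjusted p under 0.05, 1 was lower and 5 were higher. Gsta4 encodes an alpha-class enzyme that clears 4-hydroxynonenal, a product of lipid peroxidation. Its log2 values were 8.42, 8.08 and 8.72 in untreated and 9.28, 9.19 and 9.35 in degarelix tumors. Every treated tumor lay above every untreated one, and the untreated tumors were spread more widely. The means were 8.41 ± 0.32 and 9.27 ± 0.08 (log2, SD, n = 3 per group), a 1.83-fold rise (change 0.87, SE 0.14, adjusted p = 0.00669). Gstt1, of the theta class, had values of 5.56, 5.48 and 5.54 in untreated and 5.99, 5.92 and 6.06 in degarelix tumors, again without overlap. It rose by 0.46 (SE 0.07, adjusted p = 0.00443), at levels below the brightest background value.

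Mu-class transferases, which share much of their sequence and may share array signal, differed in how they behaved. Gstm1 values were 9.11, 8.66 and 9.48 in untreated and 9.70, 9.47 and 9.54 in degarelix tumors. The groups overlapped, and the change, 0.49 with an SE of 0.18, missed the threshold (adjusted p = 0.127), although it passed without untreated replicate 3 (change 0.69, adjusted p = 0.0287). Gstm5 had the same mean in both groups within 0.04 but ranged from 7.82 to 8.85 among untreated tumors and only from 8.37 to 8.43 among treated ones. The other mu members, Gstm2, Gstm3, Gstm4, Gstm6 and Gstm7, had changes from 0.07 to 0.27, none past the test, although Gstm2 passed without untreated replicate 3.

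Gstp1, the pi-class enzyme often silenced in human prostate cancer, was bright in all 6 tumors. Its values were 10.27, 10.37 and 10.56 in untreated and 10.32, 10.31 and 10.40 in degarelix tumors, overlapping throughout. The change of -0.05 had a 95% interval from -0.25 to 0.15 and turned to 0.07 and 0.05 under cyclic loess and quantile normalization and to 0.03 without untreated replicate 3. Gsto1, an omega-class enzyme with thioltransferase activity, stood at 7.43, 7.71 and 7.86 in untreated and 7.30, 7.30 and 7.31 in degarelix tumors. These groups did not overlap, yet the change missed the threshold (-0.36, SE 0.11, adjusted p = 0.0663). Without untreated replicate 1, the nearest to the treated tumors, the change was -0.48 and passed (adjusted p = 0.00637). Of the 19 transferases, 16 had values above 0 as deposited and under cyclic loess and quantile normalization, and 13 with each array centred on its median. As deposited, 17683 of all 30142 genes had values above 0, but only 3398 of the 9171 with a mean above the brightest background value. Of the 19, 11 had a mean below that value, and the 3 with changes below 0 (Gsto1, Gstp1 and Gsta2) were not among these 11. The remaining transferases (Gsta2, Gsta3, Gstk1, Gsto2, Gstp3, Gstt2, Gstt3 and Gstt4) had changes from -0.05 to 0.21 and did not pass.

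Mgst2, a membrane-bound transferase that can also make leukotriene C4, had values of 6.96, 7.06 and 7.17 in untreated and 7.57, 7.63 and 7.70 in degarelix tumors. The groups were well apart relative to their spread, and the rise was 1.48-fold (change 0.57, SE 0.08, adjusted p = 0.00276). Its relatives Mgst1 and Mgst3 had changes of 0.20 (SE 0.07, adjusted p = 0.0997) and 0.22 (SE 0.14, adjusted p = 0.342).

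**Figure D2:**
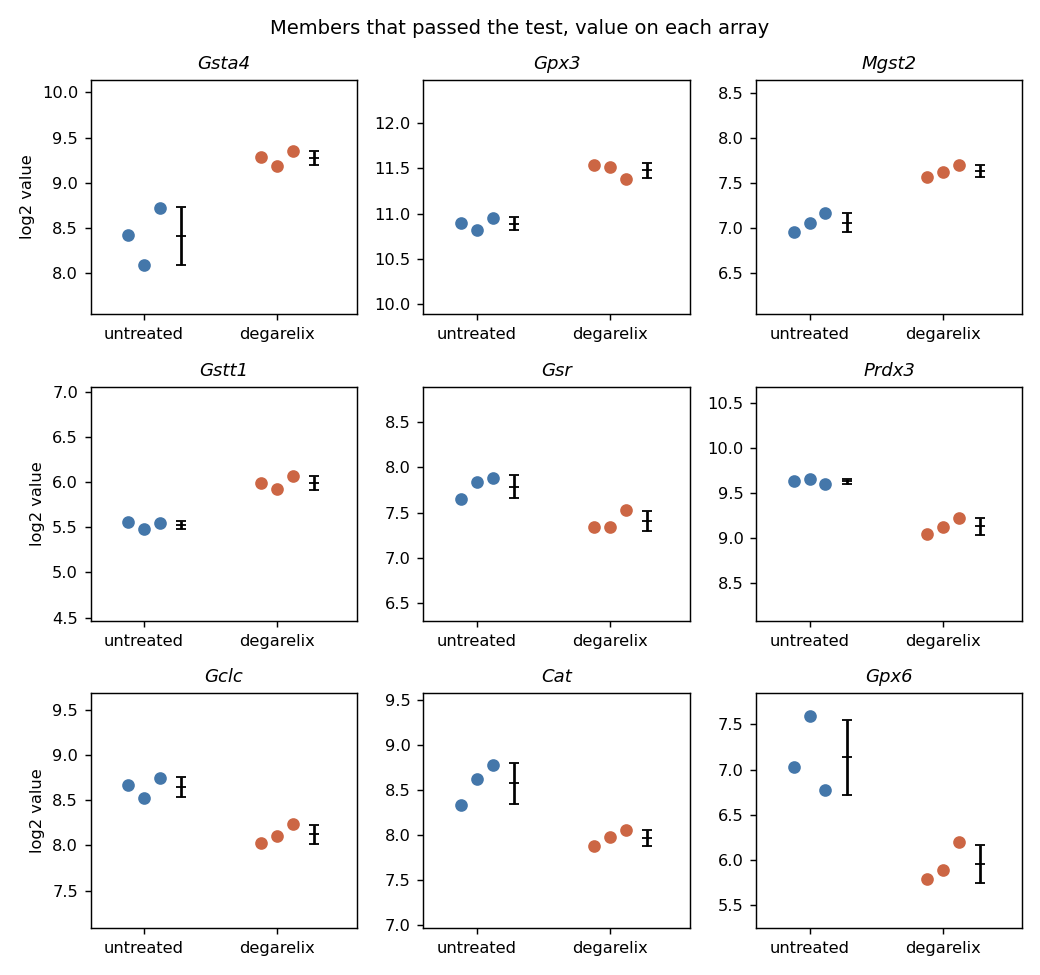
Log2 value on each array for the 9 members that passed the test, with bars for mean and SD (n = 3 per group); every panel spans the same height in log2 units. In each panel the 3 untreated (blue) and 3 degarelix (orange) points do not overlap, with Gpx6 spread most widely among untreated tumors.

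The 9 glutathione peroxidases split. Gpx3, the secreted form found in plasma, stood at 10.89, 10.81 and 10.96 in untreated and 11.54, 11.51 and 11.39 in degarelix tumors. It rose 1.51-fold (change 0.59, SE 0.08, adjusted p = 0.00183), and it also passed a test against a 1.2-fold change (adjusted p = 0.0419). Gpx6, a selenium-independent relative in mice known from olfactory tissue, fell from 7.03, 7.60 and 6.78 to 5.79, 5.89 and 6.19. All its treated values and 1 untreated value lay below the brightest background value, so the size of its fall is uncertain. The measured values were 2.26-fold lower (change -1.18, SE 0.20, adjusted p = 0.00677), and passed the 1.2-fold test too (adjusted p = 0.0323). Gpx8, a peroxidase of the endoplasmic reticulum membrane, had values of 6.80, 7.22 and 7.44 in untreated and 7.59, 7.64 and 7.80 in degarelix tumors. There was no overlap, but the change missed the threshold (0.52, SE 0.15, adjusted p = 0.0579). It passed without untreated replicate 3 (change 0.66, adjusted p = 0.0276), under cyclic loess (adjusted p = 0.0429), under quantile normalization (adjusted p = 0.0331), with array weights (adjusted p = 0.0196) and with dim genes left out (adjusted p = 0.0497).

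The common cytosolic peroxidase gene Gpx1 and Gpx4, which protects membranes from lipid peroxides and so from ferroptosis, did not pass. Gpx1 lay between 11.51 and 11.60 in untreated and between 11.45 and 11.62 in degarelix tumors. Its change of -0.04 (95% interval -0.20 to 0.13) turned to 0.11 under cyclic loess and quantile normalization. Gpx4 lay between 8.39 and 8.47 in untreated and between 8.47 and 8.56 in degarelix tumors, a change of 0.08 (95% interval -0.07 to 0.23). These intervals leave out a change as large as that of Gpx3. Gpx2, Gpx5 and Gpx7 and Gpx2-ps1, all below the brightest background value, had changes from -0.15 to 0.20.

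Of 10 members of the peroxiredoxin and thioredoxin group only Prdx3 passed (10%), against 11.7% of all genes. It encodes the main peroxide scavenger of mitochondria and stood at 9.63, 9.66 and 9.60 in untreated and 9.04, 9.12 and 9.23 in degarelix tumors. The untreated tumors were nearly alike, and the fall was 1.41-fold (change -0.50, SE 0.07, adjusted p = 0.00378). Prdx2, its cytosolic relative, changed by -0.01 (95% interval -0.18 to 0.16) and Prdx4, of the endoplasmic reticulum, by 0.10 (95% interval -0.13 to 0.34), although Prdx4 passed under cyclic loess. Txn1, the cytosolic thioredoxin, had values from 11.74 to 11.86 in untreated and from 11.66 to 11.74 in degarelix tumors. Its change of -0.12 (SE 0.07, adjusted p = 0.304) turned to 0.03 and 0.01 under cyclic loess and quantile normalization. Txnrd2, Txnrd3, Prdx2-rs3 and Prdx6-ps2 had changes from -0.09 to -0.05 and did not pass.

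Of the 3 members of glutathione synthesis and its recycling 2 fell (66.7%), against 7.51% of all genes and 16.1% of the brighter ones. Gclc, the catalytic subunit of the rate-limiting ligase, stood at 8.67, 8.52 and 8.75 in untreated and 8.03, 8.10 and 8.24 in degarelix tumors, a 1.44-fold fall without overlap (change -0.52, SE 0.09, adjusted p = 0.00704). Gsr, the glutathione reductase, went from 7.65, 7.83 and 7.88 to 7.34, 7.34 and 7.53 (change -0.38, SE 0.09, adjusted p = 0.0276). That call was the least stable of the 9. It ended with median centring (adjusted p = 0.0572), without untreated replicate 2 or 3 (0.0926 and 0.0996) and without degarelix replicate 1 or 2 (both 0.108). Gss, which completes glutathione, lay at 6.80, 7.06 and 7.18 in untreated and at 7.28, 7.27 and 7.30 in degarelix tumors. Its groups did not overlap, but the change missed the threshold (0.27, SE 0.10, adjusted p = 0.128). The cluster annotated with both Gclm and Gm6061 had group means of 8.09 and 7.82 and was not tested.

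Cat, the peroxisomal catalase gene, had values of 8.33, 8.62 and 8.78 in untreated and 7.88, 7.98 and 8.05 in degarelix tumors. It fell 1.52-fold without overlap (change -0.60, SE 0.11, adjusted p = 0.0118), a call that ended without degarelix replicate 1 (adjusted p = 0.0568). Sod1, the cytosolic superoxide dismutase, lay between 12.48 and 12.56 in untreated and between 12.44 and 12.47 in degarelix tumors. Its change of -0.07 (95% interval -0.22 to 0.07) turned to 0.09 and 0.05 under cyclic loess and quantile normalization. The extracellular form Sod3 was dim and changed by 0.05.

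The regulator genes Nfe2l2 and Keap1 and the enzyme genes Nqo1 and Hmox1 gave no call. None of these 4 passed in limma, and none had an unadjusted p under 0.05. Nfe2l2 had values of 7.17, 7.22 and 7.35 in untreated and 7.33, 7.09 and 7.44 in degarelix tumors (change 0.04, 95% interval -0.19 to 0.27). Keap1 ranged from 7.82 to 7.97 and from 7.85 to 7.88 (change -0.05, 95% interval -0.21 to 0.11). Both signs turned under other scalings, Nfe2l2 to -0.01 with median centring and Keap1 to 0.02 and 0.03 under cyclic loess and quantile normalization. Nqo1, the quinone reductase gene often used as a reading of NRF2 activity, lay between 3.48 and 3.60 on all 6 arrays, no brighter than the background probes reached. Hmox1, the inducible heme oxygenase gene, had values of 7.19, 7.96 and 8.39 in untreated and 7.25, 7.25 and 7.39 in degarelix tumors. The untreated tumors straddled the treated ones, and the change missed the threshold (-0.55, SE 0.25, adjusted p = 0.209). Without untreated replicate 1 it was -0.88 and passed (adjusted p = 0.00415), as it did with array weights (adjusted p = 0.0136).

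In all, 21 of the 51 members (41.2%) had groups that did not overlap, against 31.2% of all genes. Among the 29 brighter members it was 12 (41.4%), against 49.2% of all genes with a mean above the brightest background value.

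Brighter members mostly varied more among untreated than among treated tumors. The SD was larger in the untreated group for 24 of the 29 brighter members (82.8%), against 68.4% of all genes with such a mean. Untreated replicate 1 held the lowest of the 6 values for 15 of these 29 members (51.7%), against 30.7% of all such genes. For 5 of the 29 (17.2%) it lay more than 0.4 below both other untreated tumors, against 7.23% of all such genes, a margin chosen after the values had been seen. These 5 were Srxn1, Hmox1, Txnrd1, Gstm5 and Gpx8. Txnrd1 and Gstm5 are described in detail because of this pattern, so that choice too followed their values.

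Srxn1, which reactivates over-oxidized peroxiredoxins, stood at 8.60 in untreated replicate 1, at 9.67 and 9.65 in the other untreated tumors and at 9.58, 9.54 and 9.73 after degarelix. Txnrd1, the cytosolic thioredoxin reductase and a standard NRF2 target, stood at 8.42, then 9.25 and 9.32, and at 8.92, 8.93 and 9.12 after degarelix. So 1 tumor was low and the other 5 were close together in Srxn1, while in Txnrd1 the treated tumors lay between. Gstm5 stood at 7.82, then 8.41 and 8.85, and at 8.37, 8.38 and 8.43 after degarelix. Replicate 1 minus the mean of untreated replicates 2 and 3 was -1.06 in Srxn1, -0.99 in Hmox1, -0.87 in Txnrd1 and -0.81 in Gstm5. With median centring these differences were -1.12, -1.05, -0.93 and -0.88. The group change of Srxn1, 0.31 (SE 0.25, adjusted p = 0.46), turned to -0.04 without this tumor, and that of Gstm5 from 0.04 to -0.24. The change of Txnrd1 was -0.01 (95% interval -0.49 to 0.48). The promoters of Srxn1, Txnrd1 and Gstm5 each held TGACNNNGC, as printed above. Gpx8 held neither spelling, and Hmox1 had no promoter in the table. The other 5 members with TGACNNNGC differed less in replicate 1, from -0.41 (Gstm7) to 0.07 (Mgst1). Nfe2l2 itself was at 7.17 in this tumor, against 7.22 and 7.35. Any link of the motif or of Nfe2l2 to this pattern, seen in genes picked by their values in 1 tumor, was not tested.

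The same tumor stood apart in markers of other cells. The mean over 13 leukocyte and macrophage markers was 6.67 in untreated replicate 1, 5.55 in untreated replicate 2, between these in replicate 3, and from 5.63 to 5.66 after degarelix. The lysozyme gene Lyz2, at 9.02, 6.26 and 7.65 in untreated and 5.51 to 6.27 in treated tumors, was also highest in this tumor. None of the 13 passed in limma (2 were lower at an unadjusted p under 0.05). Ptprc, Itgam and Adgre1, which encode the antigens sorted against, lay between 3.68 and 6.15, below the brightest background value. The part of other cells in these results was not tested, and less RNA per cell cannot be told apart from fewer cells of a type.

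**Figure D3:**
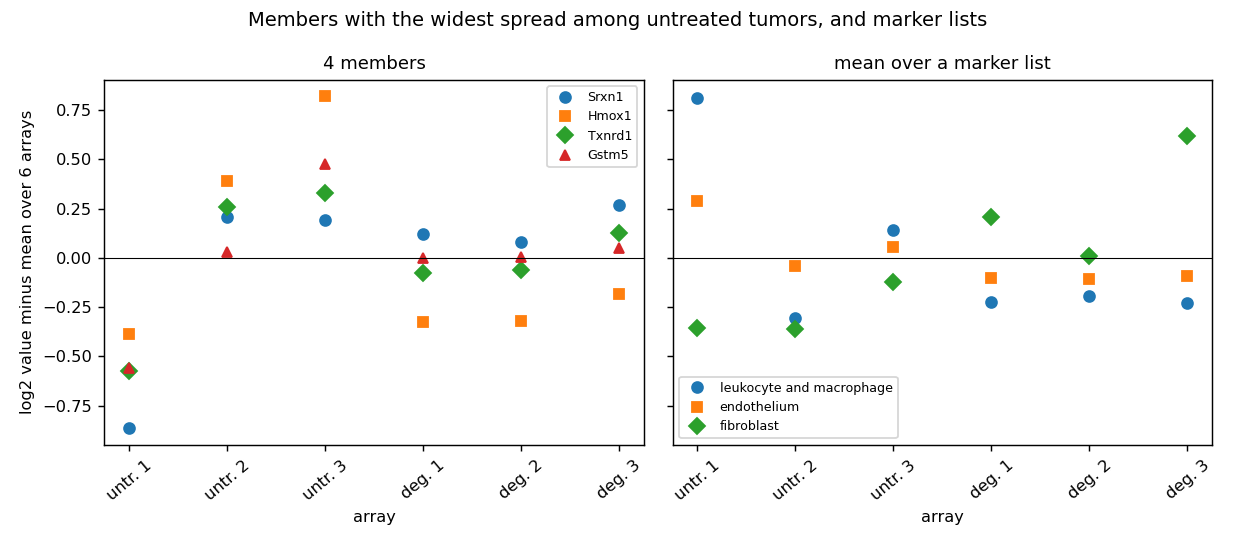
Left, log2 value minus the mean over 6 arrays for Srxn1, Hmox1, Txnrd1 and Gstm5 on each array (untr., untreated; deg., degarelix); right, the same for the mean of 3 marker lists. Untreated replicate 1 is the lowest point for each of the 4 members and the highest for the leukocyte and macrophage list (6.67), and degarelix replicate 3 is the highest for the fibroblast list (8.13).

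Several marker lists differed between the groups. The mean over 9 fibroblast markers was 7.16 to 7.39 in untreated and 7.53 to 8.13 in degarelix tumors, and 2 of the 9 rose, Dcn by 1.46 and Fbln1 by 1.07. The list was highest in degarelix replicate 3, where Gsta4 (9.35), Mgst2 (7.70) and Gstt1 (6.06) had their highest treated values and Gpx3 its lowest (11.39). Over the 3 treated arrays Gsta4 and Gstt1 were ordered like the list, while Mgst2 and Gpx3 were not. Such an order over 3 arrays is too short to read and was not tested. The mean over 6 basal epithelium markers was 6.60 to 6.71 in untreated and 7.34 to 7.49 in degarelix tumors, and Krt15 (3.88) and Krt14 (0.38) rose. Both group means of Krt14 (5.94 and 6.32) were below the brightest background value. The other 4, Krt17 (0.39), Krt5 (0.11), Dst (0.04) and Trp63 (-0.07), did not pass. The mean over 8 tumor and prostate epithelium markers was 7.33 to 7.57 and 7.72 to 7.79, and Krt19 rose by 1.88. The other 7 did not pass, and Hoxb13 (-0.19) and Foxa1 (-0.06) had values below 0. The mean over 8 endothelium markers was 6.15 to 6.48 and 6.09 to 6.10, and Vwf fell (-0.71). The other 7 did not pass, and 3 of the 8 had values above 0. None of these list means overlapped between the groups, but a mean over so few genes can rest on 1 large change. The part of these cells in the rises of Gpx3, Gsta4, Mgst2 and Gstt1 was not tested. All 9 measured cell division markers fell, with a median of -2.04, in the same tumors in which Gclc, Prdx3, Gsr and Cat fell, and their part was not tested either. As a check of the labelled cell type, Krt8 was bright (11.55 ± 0.33 untreated, 11.92 ± 0.14 treated, SD, n = 3 per group), as was the prostate factor gene Foxa1 (9.48 ± 0.10 and 9.42 ± 0.05), while Epcam, Cdh1 and Krt18 lay below the brightest background value on all arrays.

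The rest of the pathway was read from 8 lists of 151 genes outside the members, of which 136 were measured. In limma 14 of these were higher and 15 lower (10.3% and 11%), against 4.19% and 7.51% of all genes. Of the 136, 81 had a mean above the brightest background value, and among all such genes 7.76% were higher and 16.1% lower. Of all 136 related genes, dim ones included, 21.3% were called either way. The share among all brighter genes, 23.8%, leaves out dim genes, so these shares are not like for like. The count higher moved with scaling, to 9 with median centring, 23 with cyclic loess and 26 with quantile normalization. Leaving out single samples gave 8 (without degarelix replicate 1) or 9 (without untreated replicate 3) higher. The count lower was 8 without each of these in turn, 6 without degarelix replicate 2 and 10 without untreated replicate 2 (22 without untreated replicate 1). The counts differed between lists, a difference that was not tested, as the plot of shares by list shows.

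NADPH is the reducing power behind Gsr and the thioredoxin reductases. Of 12 measured enzymes that supply it, 5 fell (41.7%), 7 did not pass and none rose in limma. At an unadjusted p under 0.05, 2 were higher and 6 lower. Among all genes 7.51% fell, and 16.1% of those with a mean above the brightest background value. Of the 12 enzymes, 11 had such a mean. The median change was -0.17. Mthfd1, a folate enzyme that yields NADPH, went from 9.57, 9.92 and 9.86 to 8.63, 8.85 and 8.85, a fall without overlap (change -1.01, SE 0.11, adjusted p = 0.000845). The mitochondrial enzymes Me2 (malic enzyme) and Idh2 (isocitrate dehydrogenase) changed by -0.62 (SE 0.08) and -0.47 (SE 0.07), and both passed. Nnt, the mitochondrial transhydrogenase gene, and Idh1, the cytosolic isocitrate dehydrogenase gene, had values the other way, 0.30 (adjusted p = 0.0728) and 0.35 (adjusted p = 0.176), and did not pass. Nnt and Idh1 were named after their values were seen.

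**Figure D4:**
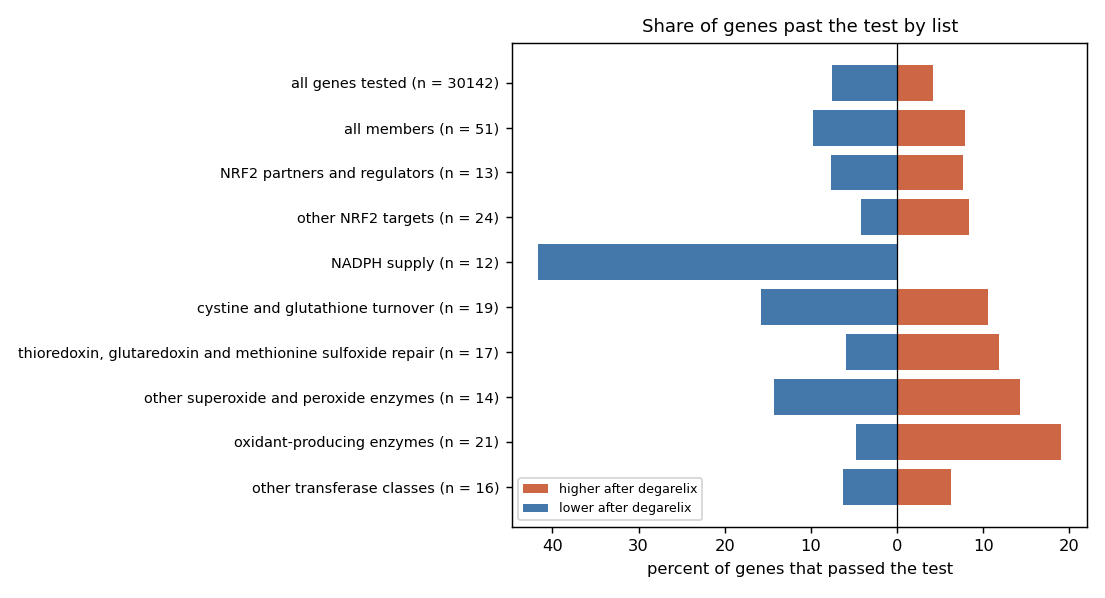
Percent of genes past the limma threshold that were higher (right) or lower (left) after degarelix, for all 30142 genes, the 51 members and 8 lists of related genes; bars start at 0 and n is the number of measured genes. The NADPH supply list has the longest bar to the left (41.7%) and the oxidant-producing list the longest to the right (19.0%). Of the 21 oxidant-producing genes, 17 had a mean below the brightest background value.

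Oxidant-producing enzymes gave 4 higher and 1 lower of 21 (19.0% and 4.76%, median 0.09), against 4.19% and 7.51% of all genes. Of the 21, 17 had a mean below the brightest background value. Those that moved included Ero1a, an oxidase of the endoplasmic reticulum, which fell from 10.77, 10.87 and 10.85 to 8.89, 8.96 and 9.00 (change -1.88), while its relative Ero1b rose by 0.54 (SE 0.11, adjusted p = 0.0173). The call of Ero1b ended with median centring (0.0633), without untreated replicate 3 (0.0605) and without degarelix replicate 1 (0.056). Duoxa1, a maturation factor of a hydrogen peroxide-making oxidase, rose by 0.46 (SE 0.08, adjusted p = 0.00946), with both group means below the brightest background value.

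Of 24 other NRF2 targets 2 rose and 1 fell (8.33% and 4.17%, median 0.03), against 4.19% and 7.51% of all genes. Ephx1, the microsomal epoxide hydrolase, rose from 8.96, 9.23 and 9.41 to 10.64, 10.51 and 10.58 (change 1.38, SE 0.11), and the ferritin heavy chain gene Fth1 by 0.46 (SE 0.07). The export pump gene Abcc2 fell, at -0.98 (SE 0.15), with both group means (5.75 and 4.77) below the brightest background value. Of 13 partners and regulators of NRF2, 1 rose and 1 fell (7.69% each), against the same 4.19% and 7.51%. The autophagy receptor gene Sqstm1 rose by 0.49 (SE 0.12, adjusted p = 0.0325). Palb2, a repair gene whose product binds KEAP1, fell (-0.46, SE 0.10, adjusted p = 0.021). Both group means of Palb2 (5.69 and 5.23) were below the brightest background value. Sqstm1 lost its call with median centring (0.0968), without untreated replicate 2 (0.0537) and without degarelix replicate 1, 2 or 3 (0.113, 0.0844 and 0.0704), and Palb2 without untreated replicate 2 (0.0645) or degarelix replicate 2 (0.0601). Bach1, a repressor at the same element, changed by 0.21 (adjusted p = 0.205) and passed under cyclic loess (0.0338) and quantile normalization (0.0311).

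Among 19 genes of cystine and glutathione turnover 2 rose and 3 fell (10.5% and 15.8%, median 0.03), against 4.19% and 7.51% of all genes. Chac1, which degrades glutathione, rose by 0.45 (SE 0.08, adjusted p = 0.009). Cth, which makes cysteine, and Slc25a39, the mitochondrial glutathione carrier, fell, at -0.44 (SE 0.09) and -0.30 (SE 0.07). Both calls ended without untreated replicate 2 (0.056 and 0.101), untreated replicate 3 (0.0555 and 0.1), degarelix replicate 1 (0.075 and 0.0971) or degarelix replicate 2 (0.0591 and 0.0957). The cystine transporter gene Slc7a11 stood at 8.99, 8.77 and 8.49 in untreated and 8.17, 8.17 and 8.53 in degarelix tumors. The groups overlapped and the change missed the threshold (-0.46, SE 0.14, adjusted p = 0.0737), although it passed with array weights (0.00753) and without untreated replicate 3 (0.0417) or degarelix replicate 3 (0.0438).

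Of 17 thioredoxin-fold and methionine sulfoxide repair genes 2 rose and 1 fell (11.8% and 5.88%), against 4.19% and 7.51% of all genes. The glutaredoxin gene Glrx rose by 0.83 (SE 0.08) and the reductase gene Msrb3 by 0.54 (SE 0.095), and Msrb1 fell (-0.47, SE 0.07). The means of Glrx, 5.41 and 6.23, were below the brightest background value. Txnip, the inhibitor of thioredoxin, changed by 0.06 (SE 0.08). Of 14 other superoxide and peroxide enzymes 2 rose and 2 fell (14.3% each), against 4.19% and 7.51% of all genes. Pon3, a paraoxonase gene, rose by 0.50 (SE 0.10, adjusted p = 0.0134), the selenium enzyme gene Sephs2 fell (-0.40, SE 0.08, adjusted p = 0.0131), and so did Sod2, the mitochondrial partner of Sod1 (-0.36, SE 0.08, adjusted p = 0.022). The degarelix mean of Sod2 (6.65) lay below the brightest background value and its untreated mean (7.02) above it. Sod2 lost its call without untreated replicate 2 or 3 or degarelix replicate 1 or 2 (0.0746 to 0.0862), Sephs2 without untreated replicate 2 or 3 or degarelix replicate 2 (0.0526, 0.0537 and 0.0598), and Pon3 without untreated replicate 3 (0.0502). Of 16 other transferases and relatives 1 rose and 1 fell (6.25% each), against 4.19% and 7.51% of all genes. Faah, an amide hydrolase gene, rose by 0.47 (SE 0.08), and Clic3, which encodes a transferase-fold protein, fell (-0.57, SE 0.13, adjusted p = 0.0236). The call of Clic3 ended without untreated replicate 2 or 3 (0.0719 and 0.0824) and without degarelix replicate 1 or 2 (0.0791 and 0.0847).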

How the data were processed

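The deposited table holds log2 values made by the authors with Affymetrix Expression Console and RMA, per the submitters' processing notes, versions not given. RMA subtracts background, equalises the arrays' distributions and combines probes into 1 value per cluster, which compresses changes of dim genes. RNA integrity was at least 9, per the labels. Of 72688 rows, 6732 control rows were left out, and 30604 of 65956 clusters had 1 symbol (2146 several, 33206 none). Symbols came from the platform annotation, 827 updated through Entrez identifiers with the RefSeq table of GRCm38.p6. The brightest cluster of each of 30142 genes was tested, with no filter. No member had more than 1 cluster.

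The test of treated against untreated tumors used limma 3.58.1 (R 4.3.3; lmFit, eBayes, two-sided, Benjamini-Hochberg over all genes, threshold 0.05); intervals are 95%. The script was tested on simulated data. The labels call the samples biological replicates, and 3 arrays per group limit precision. Members and lists were chosen with earlier results of these data known. The motif spelling TGAGNNNGC and the margin for untreated replicate 1 were added after seeing the data. Named were the members past the test, 10 regulators and main enzymes, the 5 largest changes that did not pass, the brightest member per role, up to 3 called genes per related list, and Slc7a11, Bach1, Sod2 and Txnip. Gclm and Prdx1, also fixed by name, had no cluster of their own. Alternatives were 3 scalings, another variance model, leaving out dim genes, averaging clusters, array weights, a 1.2-fold test, leaving out each sample, and blocking on replicate number. Tables and figures used Python 3.11.15, pandas 2.3.3 and matplotlib 3.10.9.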

Additional observations from a re-analysis of the deposited data

How the results depend on the processing

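Of 15 alternatives to the limma fit, all kept the direction of the 9 members that passed, and 7 of the 9 (not Gsr and Cat) passed under every alternative other than the 1.2-fold test, which left Gpx3 and Gpx6. Members higher numbered 8 with array weights and 1 in the 1.2-fold test, and members lower 1 in the latter; leaving out single samples gave 4 to 7 higher and 3 to 7 lower. Beside the gains given in the report, array weights added Gpx5, Gsto1, Gstt3 and Mgst1, and leaving out degarelix replicate 3 added Gpx5. Related genes higher numbered 9 with median centring, 23 with cyclic loess, 26 with quantile normalization, 26 with array weights and 2 in the 1.2-fold test, and lower 29 and 4 in the last pair of settings. Leaving out single samples gave 8 to 18 higher and 6 to 22 lower. Over all genes, 691 were higher with median centring, 5052 higher and 4860 lower with array weights, and 241 higher and 508 lower in the 1.2-fold test, against 1262 and 2264 as deposited (1939 lower with median centring, 1550 and 2004 with cyclic loess, 1646 and 2021 with quantile normalization); leaving out single samples gave 624 to 1651 higher and 966 to 3253 lower. Small changes that did not pass turned sign: with median centring Nqo1 (-0.0175), Nfe2l2 (-0.0074) and Gstm5 (-0.0115); with cyclic loess Gpx1 (0.111), Gstp1 (0.0743), Keap1 (0.0166), Sod1 (0.0908), Txn1 (0.0305), Txnrd1 (0.0955) and Nqo1 (-0.0147); with quantile normalization Gpx1 (0.112), Gstp1 (0.0465), Keap1 (0.0311), Sod1 (0.0487), Txn1 (0.0145), Txnrd1 (0.0738) and Nqo1 (-0.0147); and with array weights Nfe2l2 (-0.094), Gstm5 (-0.0945) and Nqo1 (-0.0037). With single samples left out, the changes ran from -0.0395 to 0.1402 for Nfe2l2, from -0.0421 to 0.4924 for Srxn1, from -0.1199 to 0.0268 for Gstp1, from -0.0839 to 0.0012 for Gpx1, from -0.2973 to 0.1538 for Txnrd1 and from -0.2358 to 0.2834 for Gstm5. The cause of these shifts was not tested. The replicate number as a block gave 5 members higher and 5 lower, with 1435 and 2371 over all genes (Gpx8 was added, adjusted p = 0.0251); same-numbered samples deviated together with r = 0.163, 0.04 and 0.196 across genes, so the numbers were not taken as pairs. No depth applies to arrays; for the 22 members below the brightest background value, changes could have been missed.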
